A study of Rattus norvegicus with 12 samples.

Results

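Fatty acid uptake and oxidation genes, 41 in number, were followed through Yap knockdown in cultured rat heart cells. The list covers proteins that bring fatty acids into a cell and bind them (7 genes), activate them with coenzyme A (6), split acyl-CoA again (2), carry acyl groups into mitochondria through carnitine (4), set malonyl-CoA (2), oxidise acyl chains (4 acyl-CoA dehydrogenases, 6 genes of the later steps and 4 of double-bond removal), pass on the electrons (3) and mark the switch of fuel (3). Each of the 41 symbols was found on 1 line of an expression table of 14636 genes, and 39 passed the filter of a mean of at least 0.5 FPKM over all libraries. Acsl6 and Ucp3 were under it and were not tested. FPKM is a fragment count scaled to transcript length and library size, so levels of different genes may be set side by side.

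Heart muscle draws most of its energy from long-chain fatty acids, while the fetal heart leans on glucose and lactate, and the oxidation genes are turned up after birth. A fatty acid that has crossed the membrane is made into acyl-CoA, handed to carnitine by carnitine palmitoyltransferase 1, re-formed as acyl-CoA inside the mitochondrion and shortened in repeated turns of β-oxidation. Malonyl-CoA blocks the carnitine step, and electrons from the first reaction of each turn reach the respiratory chain through electron transfer flavoprotein. Many of these genes are known targets of the nuclear receptors PPAR and ERR. Yap, encoded by Yap1, is held in check by Hippo signalling and, once in the nucleus, activates transcription mainly as a partner of TEAD proteins.

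The cells came from Sprague Dawley rats aged 2 days; hearts were digested with an enzyme kit, and a Percoll gradient parted cardiomyocytes from cardiac fibroblasts. The medium was DMEM holding 15% fetal bovine serum with antibiotics, and the cells were transfected 16 h after plating, and gave RNA 48 h later. The 4 groups of 3 libraries were cardiomyocytes with a mix of 2 Yap siRNAs at 25 nM each (CM_yap), cardiomyocytes with a universal negative control siRNA (CM_neg), fibroblasts with the Yap siRNAs (CF_yap) and fibroblasts with the control siRNA (CF_neg). Whether replicates were separate animals or cultures is not in the labels, and the p-values thus measure only spread among these libraries, which may be technical. As the 2 siRNAs were mixed, effects of either alone are not separated, and RNA was bulk, so fewer cells of a type and less RNA per cell cannot be told apart.

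Yap1 was at 5.90, 4.43 and 6.0 FPKM in CM_yap, against 55.3, 60.8 and 63.1 FPKM in CM_neg, and at 4.45, 3.88 and 4.49 FPKM in CF_yap, against 35.4, 37.4 and 33.5 FPKM in CF_neg. That left 9.11% of the control level in cardiomyocytes and 12.1% in fibroblasts. The FPKM of a library summed to 563193.5 to 620119.3, the number of reads is unknown, and Spearman correlations over genes were 0.989 to 0.9919 within groups and 0.8894 to 0.9845 between them. Of 8 cardiomyocyte markers all 8 were higher in CM_neg than in CF_neg, and of 8 fibroblast markers all 8 were lower. Summed fibroblast markers ran from 335 to 491 FPKM in CM_neg, against 16639 to 17612 FPKM in CF_neg. Summed cardiomyocyte markers ran from 21148 to 24392 FPKM in CM_neg, against 804 to 854 FPKM in CF_neg, so markers of the other type were measured in each culture.

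Promoter windows are shown for 4 members because 3 carry the CATTCC element bound by TEAD proteins and differ in how they moved after Yap siRNA, and because Hadha and Hadhb start on opposite strands of the same stretch. The windows are RefSeq sequence on GRCr8, another build than the rn6 genome named by the submitters; 32 of 41 members matched a window by gene ID. Each holds the 250 bases before the gene's start, 5′ to 3′ on the gene's own strand, and capitals mark CATTCC or its reverse complement GGAATG. The window of Cpt1a lies at chr1:209995910-209996159, plus strand, that of Acsl5 at chr1:264294601-264294850, plus strand, that of Etfb at chr1:102988249-102988498, plus strand, and that of Hadha at chr6:31907551-31907800, plus strand.
Cpt1a: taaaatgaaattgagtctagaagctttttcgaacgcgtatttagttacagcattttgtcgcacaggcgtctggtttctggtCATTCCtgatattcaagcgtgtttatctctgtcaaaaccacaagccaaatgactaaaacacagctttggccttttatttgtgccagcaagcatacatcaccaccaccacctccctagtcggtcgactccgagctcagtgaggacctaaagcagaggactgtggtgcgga
Acsl5: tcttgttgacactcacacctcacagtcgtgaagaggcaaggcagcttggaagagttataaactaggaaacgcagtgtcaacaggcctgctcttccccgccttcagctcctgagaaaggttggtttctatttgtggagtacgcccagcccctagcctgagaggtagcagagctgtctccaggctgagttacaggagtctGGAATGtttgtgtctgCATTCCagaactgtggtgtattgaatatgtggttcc
Etfb: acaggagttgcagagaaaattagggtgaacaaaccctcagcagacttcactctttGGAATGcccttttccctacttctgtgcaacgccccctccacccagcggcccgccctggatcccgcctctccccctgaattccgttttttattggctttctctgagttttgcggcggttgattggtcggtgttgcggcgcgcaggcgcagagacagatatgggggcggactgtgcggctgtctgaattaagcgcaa
Hadha: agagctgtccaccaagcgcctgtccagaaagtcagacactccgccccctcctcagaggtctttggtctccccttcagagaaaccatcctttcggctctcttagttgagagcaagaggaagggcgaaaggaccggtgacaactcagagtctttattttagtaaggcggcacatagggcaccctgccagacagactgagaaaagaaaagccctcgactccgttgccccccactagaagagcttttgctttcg
Counted from the gene's start, with -1 the last base before it, the match begins at -169 in Cpt1a, at -52 and -36 in Acsl5 and at -195 in Etfb. The starts of Hadha and Hadhb are 300 bases apart, so the window of Hadha covers most of what lies between them.

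CATTCC was found on either strand in 4 of 32 members' windows, or 12.5%, against 12.062% of 33469 windows of the same length. Beside the windows shown, it was found in that of Acsl6, which was under the filter. AGGTCA, a half-site of nuclear receptors, was found in 6 of 32 (18.75%), those of Acacb, Acadvl, Echs1, Eci1, Slc27a1 and Ucp3, against 14.064% of all windows. The ERR element TCAAGGTCA and the PPAR element, AGGTCA repeated after 1 base of any kind, which both hold AGGTCA, were found in 0 of 32, against 0.388% and 0.051% of all windows. A match describes the letters of these windows and does not show that a protein binds there.

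Under control siRNA the cell types differed in every tested member: 32 of 39 were higher and 7 lower in CM_neg than in CF_neg, against 42.0% higher and 26.4% lower among all 11302 tested genes (68.4% called). The members' median log2 fold change was 1.095, against 0.125 over all genes tested, and the 41 genes took 0.659% to 0.739% of the FPKM of a CM_neg library, against 0.267% to 0.273% in CF_neg. All fold changes are of FPKM + 1, which understates those of low genes; they come from limma over all 12 libraries, are given ± SE, and count as called where the p adjusted by Benjamini-Hochberg over all tested genes was under 0.05. Of all called genes 61.4% were higher in CM_neg here, or 50.8% after median-of-ratios scaling and 45.2% after quantile normalization. The median over all genes was then 0.007 and -0.06 in place of 0.125.

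The widest gap was that of Cpt1b, the muscle form of carnitine palmitoyltransferase 1, with 48.6, 46.96 and 51.5 FPKM in CM_neg, against 1.17, 0.99 and 0.98 FPKM in CF_neg. All CM_neg libraries stood far above all CF_neg libraries (4.61 ± 0.095, adjusted p = 1.72e-15). Fabp3, the fatty acid-binding protein of heart muscle, had 1177, 1120.2 and 1364 FPKM in CM_neg, against 81.2, 74.5 and 74.5 FPKM in CF_neg, and was the highest member in cardiomyocytes (3.97 ± 0.085, adjusted p = 2.59e-15). The fatty acid translocase Cd36 had 69.5, 72.2 and 78.4 FPKM in CM_neg, against 6.19, 6.83 and 6.84 FPKM in CF_neg (3.29 ± 0.073, adjusted p = 3.67e-15). Pdk4, the kinase that turns off pyruvate dehydrogenase, had 14.2, 14.4 and 16.9 FPKM in CM_neg, against 1.14, 0.99 and 0.7 FPKM in CF_neg (3.06 ± 0.12, adjusted p = 2.66e-12). Acacb, which makes the malonyl-CoA that restrains the carnitine step, had 6.53, 7.52 and 9.08 FPKM in CM_neg, against 0.46, 0.48 and 0.43 FPKM in CF_neg (2.57 ± 0.12, adjusted p = 2.53e-11). None of these 5 overlapped between the cell types, but they were picked for the largest changes, so this is no added support. The share of all tested genes without overlap was not counted, for this or the later comparisons.

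Every member of the carnitine shuttle, the acyl-CoA dehydrogenases, the later steps, double-bond removal and electron transfer was higher in CM_neg, by 0.34 for Eci1 to 4.61 for Cpt1b. Eci1 lost its call under quantile normalization (adjusted p = 0.0624). The 7 members lower in CM_neg were Fabp4 (-1.46), Fabp5 (-0.93), Acot1 (-0.61), Acsl3 (-0.52), Lpl (-0.47), Slc27a1 (-0.45) and Acsl4 (-0.23). Acot1 averaged 0.123 FPKM in CM_neg, against 0.713 FPKM in CF_neg, and passed the filter on low values through the fibroblast groups, so its call here is partly set by the filter. The same holds in the other direction for Acacb, which averaged under 0.5 FPKM in CF_neg. The others lower in CM_neg include the binding proteins of fat and skin, the lipase that frees fatty acids from lipoproteins, and the membrane transport protein FATP1, encoded by Slc27a1. Acsl4 was called only by a narrow margin: its adjusted p was 0.0534 to 0.234 without any of 6 libraries (CM_neg 3, CF_yap 1, 2 and 3, CF_neg 1 and 2). Acsl5 was higher in CM_neg (0.25 ± 0.069) but lost its call under median-of-ratios scaling and quantile normalization (adjusted p = 0.153 and 0.349).

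**Figure D1:**
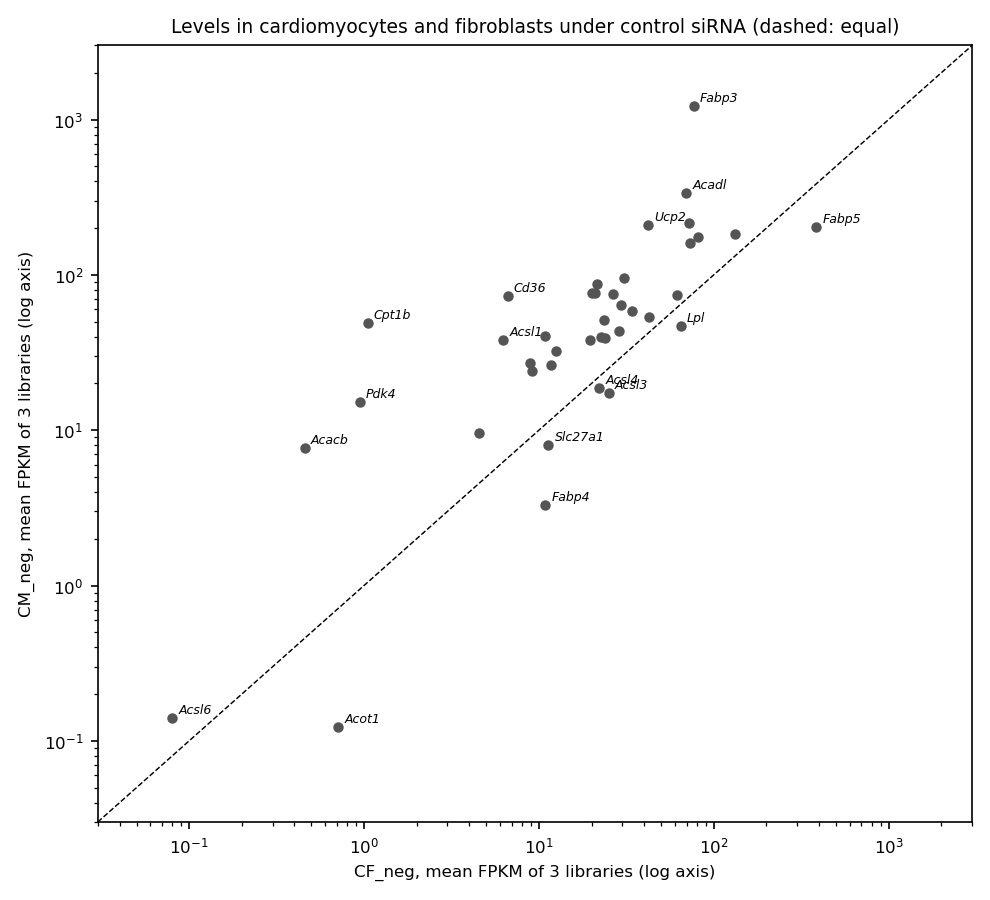
Mean FPKM over 3 libraries in cardiomyocytes (CM_neg, y axis, log) against fibroblasts (CF_neg, x axis, log) under control siRNA, 1 point per gene; named are genes lower in CM_neg, those with a log2 fold change over 2, and Acsl6, which was not tested. Of the tested genes 32 lie above the dashed line of equal levels, and Cpt1b, Pdk4, Acacb and Fabp3 lie farthest from it; Ucp3 is at 0 in both groups and is not drawn.

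After Yap siRNA in cardiomyocytes, 25 of 39 tested members were higher, 5 were lower and 9 were not called. Among all tested genes 49.8% were called there, 21.0% higher and 28.7% lower. The members' median log2 fold change was 0.411, against -0.059 over all genes, and their share of a library's FPKM was 0.878% to 0.929% in CM_yap, against 0.659% to 0.739% in CM_neg. Of all called genes 42.3% were higher, or 53.0% after median-of-ratios scaling and 33.6% with equal FPKM sums; the members' count was then 29 and 24 higher, with 5 lower under each. No called member changed its sign under any alternative.

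The 2 largest rises in cardiomyocytes were at activation, the step that makes acyl-CoA. Acsf2, a synthetase that takes medium-chain fatty acids, had 126, 122 and 116 FPKM in CM_yap, against 40.7, 38.98 and 42.4 FPKM in CM_neg, and each CM_yap library was above each CM_neg library (1.55 ± 0.073, adjusted p = 1.3e-09). Acsl1, the main long-chain synthetase of heart muscle, had 89.8, 102 and 109.8 FPKM in CM_yap, against 38.1, 34.8 and 41.2 FPKM in CM_neg, also without overlap (1.38 ± 0.083, adjusted p = 1.28e-08). The other long-chain synthetases fell: Acsl4, which prefers arachidonic acid (-0.74 ± 0.097), Acsl5 (-0.44 ± 0.069) and Acsl3 (-0.33 ± 0.087). Acsl6 was under the filter, with 0.4, 0.31 and 0.47 FPKM in CM_yap and 0.17, 0.04 and 0.21 FPKM in CM_neg. Of the thioesterases, which undo activation, mitochondrial Acot2 rose (0.44 ± 0.09), while cytosolic Acot1 was near 0, at 0 to 0.1 FPKM in CM_yap and 0 to 0.28 FPKM in CM_neg. Acot1 and Acot2 are close copies that lie next to each other, so reads may have been split between them and both values are uncertain.

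At the entrance to the mitochondrion, 3 of 4 carnitine shuttle genes rose in cardiomyocytes. Cpt1b had 84.3, 75.8 and 94.7 FPKM in CM_yap, against 48.6, 46.96 and 51.5 FPKM in CM_neg, with no overlap (0.78 ± 0.095, adjusted p = 1.09e-05). Cpt1a, the liver form, rose by 0.45 and Cpt2, the transferase of the inner membrane, by 0.54 on the log2 scale. Crat, which moves acetyl groups to carnitine, was not called (0.036 ± 0.071). Acacb, which works against this step by making malonyl-CoA, rose with them: it had 12.8, 14.7 and 16.1 FPKM in CM_yap, against 6.53, 7.52 and 9.08 FPKM in CM_neg, and the groups were apart (0.84 ± 0.12, adjusted p = 4.55e-05). Mlycd, which breaks malonyl-CoA down, was at 0.21 ± 0.084 and narrowly missed the threshold (adjusted p = 0.0506). It passed without CM_yap 1 or without CM_neg 3 (adjusted p = 0.0194 to 0.0228).

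Within β-oxidation the sizes differed widely between enzymes of the same path. Hadh, the short-chain hydroxyacyl-CoA dehydrogenase, had 95.7, 83.9 and 109 FPKM in CM_yap, against 38.5, 31.4 and 44.4 FPKM in CM_neg, with every CM_yap library higher (1.32 ± 0.11, adjusted p = 2.6e-07). Ech1, which shifts double bonds of unsaturated chains, had 100.2, 94.9 and 124 FPKM in CM_yap, against 58.4, 49.7 and 66.8 FPKM in CM_neg, again without overlap (0.86 ± 0.11, adjusted p = 1.56e-05). The enoyl-CoA isomerases Eci1 and Eci2 rose by 0.71 and 0.52, the medium-chain dehydrogenase Acadm by 0.65 and the thiolase Acaa2 by 0.62. Smaller rises were those of Acat1, which joins and splits acetoacetyl-CoA (0.34), the very-long-chain dehydrogenase Acadvl (0.32), Hadha (0.28) and the short-chain dehydrogenase Acads (0.28). The call of Acads was weak: it was lost without any of 6 libraries (CM_yap 1 and 3, CM_neg 1 and 2, CF_yap 3, CF_neg 1; adjusted p = 0.0547 to 0.164). Echs1, the enoyl-CoA hydratase, was at -0.029 ± 0.088 and not called. Acadl (0.18 ± 0.075), Decr1 (0.18 ± 0.082) and Hadhb (0.15 ± 0.064) were not called with all libraries but were called without some: Acadl without CM_yap 3, CF_neg 1 or CF_neg 3, Decr1 without CF_neg 2, and Hadhb without CM_yap 2 or CM_neg 1 (adjusted p = 0.0157 to 0.0469).

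Electron transfer flavoprotein is a dimer of the products of Etfa and Etfb, and its oxidoreductase, encoded by Etfdh, hands the electrons to ubiquinone. Etfdh had 162, 167 and 153 FPKM in CM_yap, against 77.3, 71.3 and 81.2 FPKM in CM_neg (1.06 ± 0.072, adjusted p = 4.46e-08). Etfb had 367, 409.9 and 329.7 FPKM in CM_yap, against 211, 195 and 244 FPKM in CM_neg (0.77 ± 0.10, adjusted p = 2.37e-05). In both genes every CM_yap library was above every CM_neg library, whereas Etfa had 166, 189 and 155 FPKM in CM_yap, within reach of 162, 157 and 161 FPKM in CM_neg, and was not called (0.081 ± 0.071, adjusted p = 0.367). The ratio of Etfb to Etfa was 2.17 ± 0.045 in CM_yap, against 1.35 ± 0.146 in CM_neg (SD, n = 3 each), a ratio chosen after the values were seen.

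Ucp2, a carrier of the inner mitochondrial membrane, had 505, 380.5 and 489.6 FPKM in CM_yap, against 214, 189.7 and 224 FPKM in CM_neg, with no overlap although the CM_yap libraries were spread widely (1.12 ± 0.097, adjusted p = 3.86e-07). Pdk4 rose by 0.67, with 21.8, 23.8 and 29.1 FPKM in CM_yap, against 14.2, 14.4 and 16.9 FPKM in CM_neg. Ucp3, the relative of Ucp2 in skeletal muscle, had 0, 0 and 0.05 FPKM in CM_yap and was listed at 0 in every CM_neg library.

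Genes of uptake moved in both directions in cardiomyocytes. Angptl4, a secreted inhibitor of lipoprotein lipase, had 21.9, 18.3 and 17.1 FPKM in CM_yap, against 43.3, 41.9 and 31.7 FPKM in CM_neg, and fell furthest of all members (-0.99 ± 0.12, adjusted p = 6.97e-06). Lpl, the lipase itself, had 35.6, 37.6 and 40.6 FPKM in CM_yap, against 46.4, 45.3 and 47.99 FPKM in CM_neg, a smaller fall without overlap (-0.29 ± 0.062, adjusted p = 0.00136). Genes on the cell's own side of uptake rose: Cd36 by 0.55, Fabp5 by 0.47, Slc27a1 by 0.41 and Fabp3 by 0.35. Fabp3 lost its call under quantile normalization (adjusted p = 0.0672), and Fabp4 was not called (0.075 ± 0.14).

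Markers of other cell types moved with these groups. Of 11 endothelial markers 6 were lower and 1 higher in CM_yap than in CM_neg, and their summed level ran from 411 to 483 FPKM in CM_yap, against 571 to 677 FPKM in CM_neg; none was at 0. Capillary endothelium is known to express Cd36, Fabp4 and Fabp5 too. Of 8 cardiomyocyte markers 7 were higher and 1 lower, with sums of 29738 to 32426 FPKM in CM_yap, against 21148 to 24392 FPKM in CM_neg. Of 8 fibroblast markers 3 were higher and 0 lower, with overlapping sums of 379 to 468 FPKM in CM_yap, against 335 to 491 FPKM in CM_neg; the proteoglycan gene Dcn had 33.9, 37.5 and 28.6 FPKM in CM_yap, against 16.6, 18.4 and 12.7 FPKM in CM_neg. Smooth muscle and pericyte markers summed to 494 to 549 FPKM in CM_yap, against 2338 to 2532 FPKM in CM_neg, with 5 of 8 higher and 3 lower. Most of that sum was smooth muscle actin, Acta2, with 453, 402 and 425 FPKM in CM_yap, against 2361, 2249 and 2449 FPKM in CM_neg. Of 7 tested leukocyte markers 1 was higher and 3 lower, with overlapping sums of 114 to 157 FPKM in CM_yap, against 119 to 152 FPKM in CM_neg. Both tested erythroid markers were lower, with sums of 72 to 128 FPKM in CM_yap, against 128 to 162 FPKM in CM_neg. The adipocyte markers summed to 0.21 to 1.1 FPKM in CM_yap, against 0.2 to 0.34 FPKM in CM_neg, with Plin1 and Lep at 0 in both. The part of cell composition in the members' changes was not tested.

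**Figure D2:**
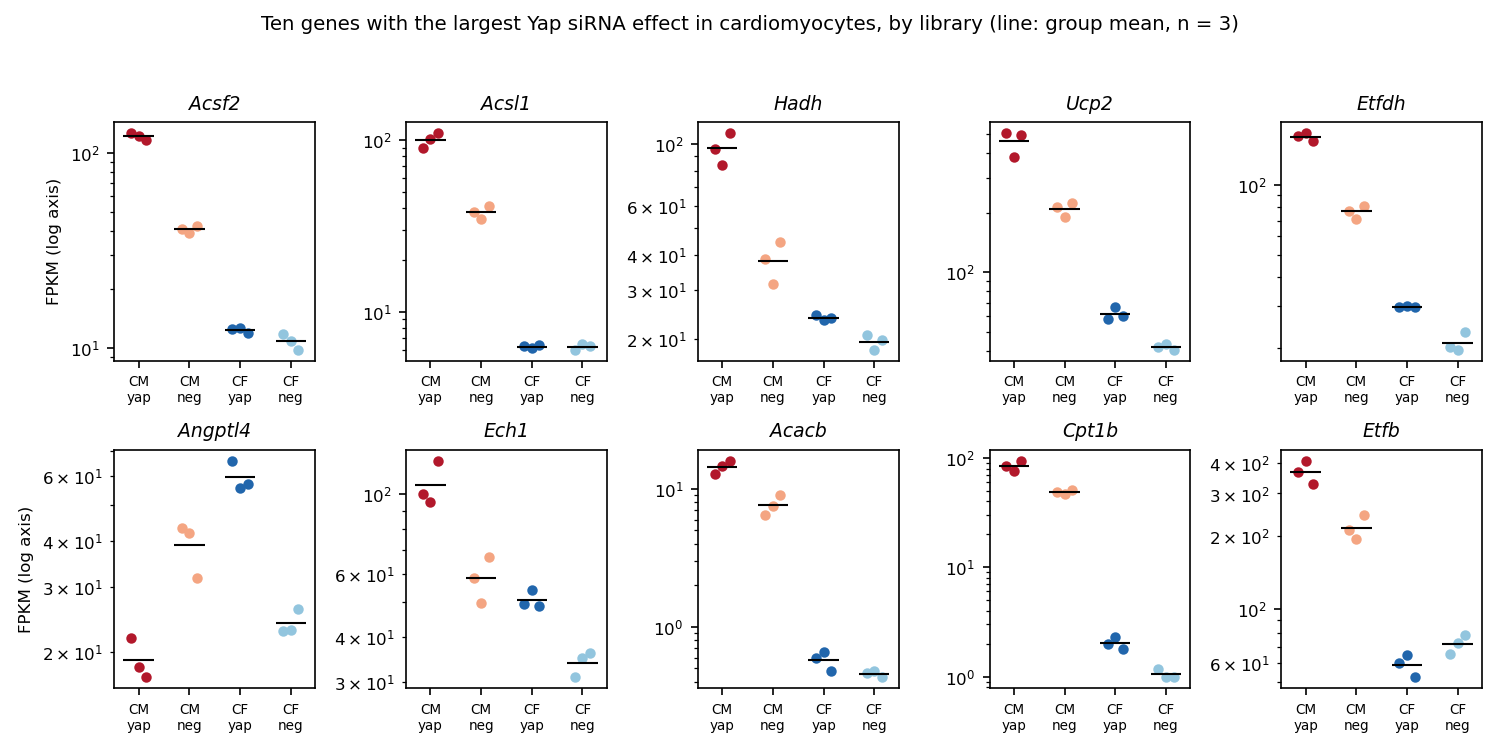
FPKM (y axis, log, its own scale in each panel) in every library of the 4 groups (x axis) for the 10 members with the largest Yap siRNA effect in cardiomyocytes; points are libraries and lines group means, n = 3. In each panel the CM_yap libraries are apart from the CM_neg libraries, above them in 9 genes and below them in Angptl4. The genes were picked for the size of their change, so the gaps are no added support.

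In fibroblasts 19 of 39 tested members were higher after Yap siRNA, 5 were lower and 15 were not called, against 20.4% higher and 10.5% lower among all genes tested (30.9% called). The members' median was 0.274, against 0.065 over all genes, and their share of FPKM hardly differed, at 0.273% to 0.282% in CF_yap, against 0.267% to 0.273% in CF_neg. Without CF_yap 3 the count lower was 3. Of all called genes 66.1% were higher, or 54.8% after median-of-ratios scaling and 46.2% after quantile normalization.

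The largest change in fibroblasts was in Angptl4, with 65.9, 55.7 and 56.9 FPKM in CF_yap, against 22.8, 23.1 and 26.2 FPKM in CF_neg, all CF_yap libraries being above all CF_neg libraries (1.27 ± 0.12, adjusted p = 1.05e-06). Cpt1a, which supplies most carnitine palmitoyltransferase 1 RNA in fibroblasts, had 16.8, 14.7 and 15.7 FPKM in CF_yap, against 9.35, 8.71 and 9.29 FPKM in CF_neg (0.72 ± 0.083, adjusted p = 1.18e-05). Slc27a1 had 18.6, 18.8 and 16.6 FPKM in CF_yap, against 12.1, 10.99 and 10.8 FPKM in CF_neg (0.62 ± 0.10, adjusted p = 0.000325). Neither gene overlapped between the groups. Eci1 had 69.7, 63.8 and 61 FPKM in CF_yap, against 39.7, 44.4 and 43.2 FPKM in CF_neg (0.60 ± 0.079, adjusted p = 4.21e-05). Ech1 had 49.6, 54.03 and 48.9 FPKM in CF_yap, against 30.9, 35.02 and 36.01 FPKM in CF_neg, so that both double-bond enzymes stood higher in each CF_yap library (0.57 ± 0.11, adjusted p = 0.00109).

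All 4 carnitine shuttle genes rose in fibroblasts: beside Cpt1a, Cpt1b by 0.56 from a low level (1.77 to 2.28 FPKM in CF_yap, against 0.98 to 1.17 FPKM in CF_neg), Crat by 0.29 and Cpt2 by 0.28. The call of Cpt2 was lost without any of 8 libraries (CM_yap 1, CM_neg 1 and each fibroblast library; adjusted p = 0.0509 to 0.124). Neither malonyl-CoA gene was called, with Acacb at 0.12 ± 0.12 and Mlycd at 0.20 ± 0.084; Mlycd was called without CM_yap 3 (adjusted p = 0.046). Among the dehydrogenases Acads rose by 0.35, Acadvl by 0.33 and Acadm by 0.32, and Acadl was not called (0.17 ± 0.075) except without CF_neg 3 (adjusted p = 0.0397). Acads was not called without CF_yap 2, CF_neg 1 or CF_neg 3 (adjusted p = 0.0545 to 0.11).

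Later steps gave few calls in fibroblasts. Acaa2 rose by 0.36 and Hadhb fell by 0.31, while Hadha (0.082 ± 0.066), Hadh (0.27 ± 0.11), Echs1 (-0.024 ± 0.088) and Acat1 (-0.11 ± 0.081) were not called. Hadh was called without CM_yap 2, CM_neg 2 or CM_neg 3 (adjusted p = 0.0339 to 0.0473). Hadha and Hadhb encode the subunits of the mitochondrial trifunctional protein. Hadhb had 112, 104 and 104 FPKM in CF_yap, against 133, 129 and 134 FPKM in CF_neg, with each CF_yap library lower (adjusted p = 0.00199). The ratio of Hadha to Hadhb was 0.814 ± 0.03 in CF_yap, against 0.619 ± 0.023 in CF_neg, and 1.05 ± 0.091 in CM_yap, against 0.961 ± 0.101 in CM_neg (SD, n = 3 each; chosen after the values were seen). They are the genes whose starts face each other across the promoter window of Hadha.

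Of the remaining genes in fibroblasts, Eci2 rose by 0.33, Etfdh by 0.50, Ucp2 by 0.53, Pdk4 by 0.45, Lpl by 0.55, Acot2 by 0.34 and Acot1 by 0.42, and Acsl3 fell by 0.53, Fabp5 by 0.42, Fabp3 by 0.31 and Etfb by 0.28. Not called were Decr1 (0.20), Etfa (0.070), Cd36 (0.12), Fabp4 (-0.26), Acsl1 (0.005), Acsl4 (0.24), Acsl5 (-0.16) and Acsf2 (0.18). Acot1 averaged 1.29 FPKM in CF_yap, against 0.713 FPKM in CF_neg, and passed the filter only through its CF_yap values. Its rise, counted among the 19, is thus partly set by the filter. Several of the calls in fibroblasts changed when single libraries were left out. Some of these were cardiomyocyte libraries, which enter the fibroblast comparison only through the shared estimate of spread. Etfb was not called without CM_yap 1, CM_neg 1, CF_yap 1, CF_yap 3, CF_neg 2 or CF_neg 3 (adjusted p = 0.0563 to 0.196), and Acot1 was not called without CF_yap 1, CF_neg 1 or CF_neg 3 (0.0829 to 0.105). Fabp3 was not called without CF_yap 3 or CF_neg 1 (0.0578 to 0.0639) and Pdk4 without CF_neg 3 (0.05). Acsl4 was called higher without CM_yap 3 or CM_neg 3 (0.0341 to 0.0432), and Acsf2 without CF_neg 1 (0.0349). Under quantile normalization Acot2 and Pdk4 lost their calls (0.0967 and 0.0731), and Acsl5 was called lower under it and under median-of-ratios scaling (0.0154 to 0.0286).

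Cardiomyocyte markers were measured in the fibroblast cultures, at lower levels than in the cardiomyocyte cultures, and 5 of 8 were higher and 2 lower in CF_yap. Myh6, the α-myosin heavy chain, had 57.5, 59.2 and 59.6 FPKM in CF_yap, against 34.1, 33.6 and 32.2 FPKM in CF_neg (0.80 ± 0.096). The 2 lower were Tnnt2 and Actc1. Tnnt2 had 381, 417 and 342 FPKM in CF_yap, against 519, 519 and 542 FPKM in CF_neg. Actc1 had 103, 106 and 110 FPKM in CF_yap, against 141, 167 and 162 FPKM in CF_neg. These 2 genes made up most of the sum of the 8, which was 661 to 754 FPKM in CF_yap, against 804 to 854 FPKM in CF_neg. Of the 5 members with the widest gap between cell types, Cpt1b, Pdk4 and Acacb were at 0.43 to 2.28 FPKM in fibroblast libraries. Cd36 was at 6.19 to 7.89 FPKM and Fabp3 at 56.15 to 81.2 FPKM there. Other marker lists moved in fibroblasts too. Of 8 fibroblast markers 4 were higher and 0 lower, among them Dcn, with 619, 608 and 538 FPKM in CF_yap, against 163, 176 and 191 FPKM in CF_neg, and the receptor Pdgfra, with 110.4, 94.9 and 101.1 FPKM in CF_yap, against 27.8, 31.3 and 30.1 FPKM in CF_neg; the 8 summed to 17462 to 17662 FPKM in CF_yap, against 16639 to 17612 FPKM in CF_neg. Smooth muscle and pericyte markers summed to 1824 to 1900.0 FPKM in CF_yap, against 3478 to 3572 FPKM in CF_neg, with 3 of 8 higher and 3 lower. Of 11 endothelial markers 4 were higher and 1 lower, with sums of 227 to 247 FPKM in CF_yap, against 183 to 209 FPKM in CF_neg. Most of that sum was Eng, with 219, 196 and 212 FPKM in CF_yap, against 184, 179 and 160 FPKM in CF_neg. Of 7 tested leukocyte markers 1 was higher and 0 lower (215 to 238 FPKM in CF_yap, against 207 to 226 FPKM in CF_neg), and neither tested erythroid marker was called. The tested adipocyte marker, Cfd, was called higher at low values that overlapped. It had 2.58, 0.86 and 1.37 FPKM in CF_yap, against 0.37, 0.98 and 0.48 FPKM in CF_neg. The adipocyte markers Plin1 and Lep were at 0 in CF_yap. The part of remaining cardiomyocytes, or of other cells, in the members' fibroblast values was not tested.

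**Figure D3:**
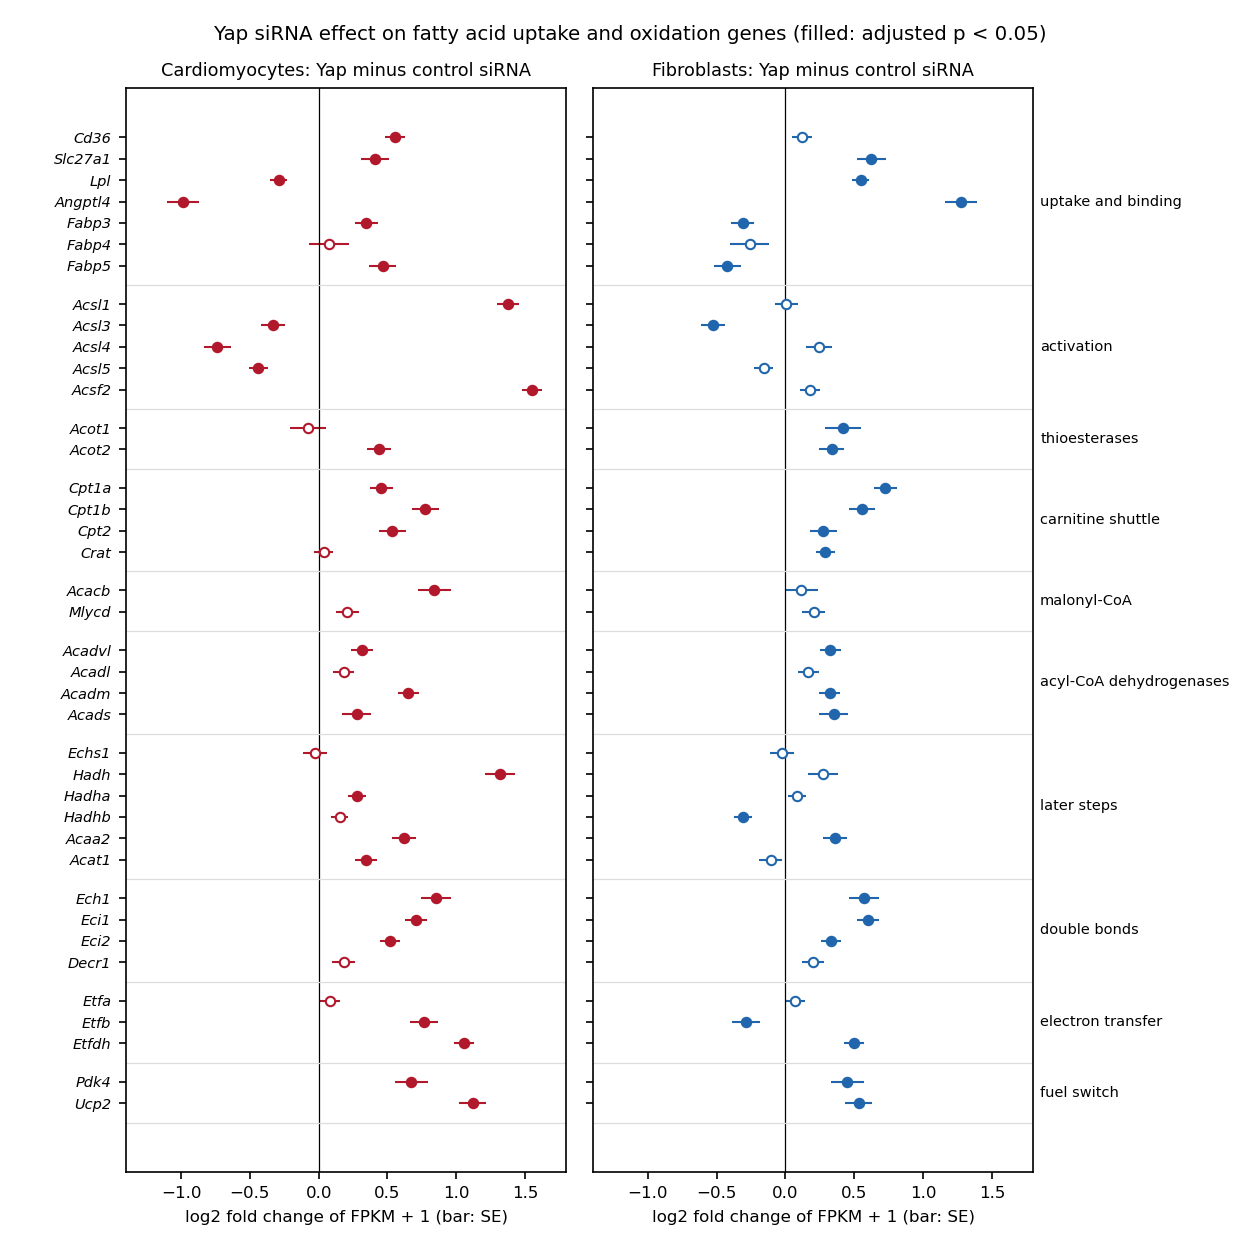
Log2 fold change of FPKM + 1 (x axis) after Yap siRNA for the 39 tested members, grouped by role, in cardiomyocytes (left) and fibroblasts (right); bars are limma's SE and filled points have an adjusted p under 0.05. In cardiomyocytes 25 filled points lie right of 0 and 5 left of it, and in fibroblasts 19 and 5.

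The cardiomyocyte and fibroblast comparisons share no libraries, but the fit over all 12 libraries gave both, with the same estimate of spread for each gene. Their calls are set side by side here but are not independent. Higher after Yap siRNA in both cell types were 15 members, which is 60.0% of the 25 in cardiomyocytes and 78.9% of the 19 in fibroblasts. Over all genes 788 were higher in both (6.97% of those tested), or 33.1% and 34.1% of the genes higher in each. The 15 were Slc27a1, Acot2, Cpt1a, Cpt1b, Cpt2, Acadvl, Acadm, Acads, Acaa2, Ech1, Eci1, Eci2, Etfdh, Pdk4 and Ucp2, so they span carnitine entry, dehydrogenation, double-bond removal and electron transfer. Acsl3 alone was lower in both, as were 6.51% of all genes tested. Neither cell type gave a call for Fabp4, Mlycd, Acadl, Echs1, Decr1 and Etfa.

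The difference between the effects, cardiomyocytes minus fibroblasts, was tested directly. It was called above 0 in 13 of 39 members and below 0 in 4, against 11.7% and 23.7% of all genes tested (35.3% called). The members' median difference was 0.199, against -0.132 over all genes. Of all called genes 33.1% were above 0, or 51.8% after median-of-ratios scaling, 51.0% after quantile normalization and 24.4% with equal FPKM sums, and the median over all genes was then -0.014, 0.003 and -0.195. The members' counts were then 17 above 0 and 3 below, 14 and 3, and 12 and 7. The largest were Angptl4 (-2.26 ± 0.16, adjusted p = 1.6e-07), Acsf2 (1.37 ± 0.10, 2.31e-07), Acsl1 (1.37 ± 0.12, 9.54e-07), Etfb (1.05 ± 0.14, 7.56e-05) and Hadh (1.04 ± 0.15, 0.000146). Acsf2 had 12.6, 12.8 and 11.96 FPKM in CF_yap, against 11.9, 10.9 and 9.85 FPKM in CF_neg, a step between groups that was not called. Acsl1 had 6.27, 6.14 and 6.37 FPKM in CF_yap, against 6.0, 6.44 and 6.27 FPKM in CF_neg, so the groups overlapped in the cell type where it stayed low. Hadh had 24.3, 23.5 and 23.8 FPKM in CF_yap, against 20.6, 18.3 and 19.9 FPKM in CF_neg.

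Other members with a difference above 0 were Fabp5 (0.89), Acacb (0.72), Fabp3 (0.66), Ucp2 (0.59), Etfdh (0.56), Hadhb (0.46), Acat1 (0.45), Cd36 (0.43) and Acadm (0.33). Below 0 were Acsl4 (-0.98), Lpl (-0.84) and Acsl5 (-0.28). Acadm lost its call without CM_yap 2, CM_neg 1, CM_neg 2, CF_yap 3 or CF_neg 3 (adjusted p = 0.056 to 0.0798). Acsl5 lost it without any of 8 libraries (CM_yap 2 and 3, CM_neg 1 and 2, CF_yap 1 and 2, CF_neg 1 and 2; 0.0527 to 0.101), under median-of-ratios scaling, where it was -0.149 (0.259), and under quantile normalization, where it was -0.181 (0.155). Acadm also lost its call with equal FPKM sums (0.0776), and Acacb lost it with a pseudocount of 0.1 (0.0569). Acaa2, Acot1, Cpt1a, Cpt2, Crat and Hadha were not called with all libraries and were called without single ones: Acaa2 without CF_yap 2 (0.0333), Acot1 without CM_neg 2 or CF_neg 2 (0.0377 to 0.046), Cpt1a without CM_yap 3 (0.0489), Cpt2 without CM_yap 2 (0.0477), Crat without CM_yap 3 or CF_neg 1 (0.039 to 0.0393) and Hadha without CM_neg 3 (0.0256).

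In all, 5 members were called in opposite directions in the cell types. Angptl4 and Lpl, the inhibitor and its lipase, fell in cardiomyocytes and rose in fibroblasts, a combination found in 3.49% of all genes tested. Lpl had 96.2, 98.3 and 90.4 FPKM in CF_yap, against 65.04, 65.8 and 63.1 FPKM in CF_neg, with no overlap (0.55 ± 0.062, adjusted p = 1.09e-05). The ratio of Angptl4 to Lpl was 0.507 ± 0.098 in CM_yap, against 0.839 ± 0.154 in CM_neg, and 0.627 ± 0.059 in CF_yap, against 0.372 ± 0.037 in CF_neg (SD, n = 3 each; chosen after the values were seen).

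Fabp3, Fabp5 and Etfb rose in cardiomyocytes and fell in fibroblasts, as did 0.885% of all genes tested. Fabp3 had 1459, 1653 and 1535 FPKM in CM_yap, against 1177, 1120.2 and 1364 FPKM in CM_neg (adjusted p = 0.00352), and 61.1, 68 and 56.1 FPKM in CF_yap, against 81.2, 74.5 and 74.5 FPKM in CF_neg (adjusted p = 0.0116). Fabp5 had 311, 292 and 241 FPKM in CM_yap, against 215, 213 and 180.04 FPKM in CM_neg (adjusted p = 0.00116), and 279, 316 and 269.9 FPKM in CF_yap, against 374, 368 and 418 FPKM in CF_neg (adjusted p = 0.00431). Neither binding protein overlapped between siRNA groups in either cell type. Etfb had 60.1, 64.6 and 52.4 FPKM in CF_yap, against 65.5, 72.3 and 78.2 FPKM in CF_neg, a narrow gap (adjusted p = 0.0467). The calls in fibroblasts of Fabp3 and Etfb were those lost without single libraries (adjusted p = 0.0578 to 0.0639 and 0.0563 to 0.196). That of Etfb was also lost with no filter (0.0804), no variance trend (0.0784), a block for replicate number (0.0613) and a pseudocount of 5 (0.0524).

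**Figure D4:**
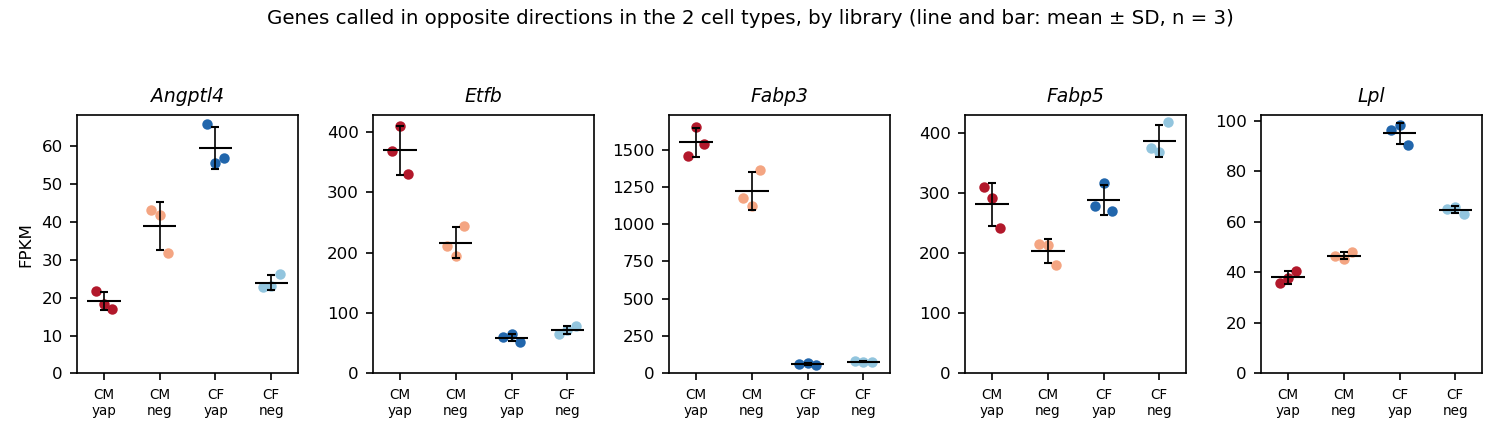
FPKM (y axis) in every library of the 4 groups (x axis) for the 5 genes called in opposite directions after Yap siRNA; points are libraries, lines and bars the mean ± SD, n = 3. Angptl4 and Lpl are lower in CM_yap than in CM_neg and higher in CF_yap than in CF_neg, and Etfb, Fabp3 and Fabp5 are the other way round.

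Because FPKM are per length, the makeup of a gene family can be read within a library. Acsl1 made up 55.9% ± 4.33 of the summed FPKM of the 5 Acsl genes in CM_yap, against 25.7% ± 2.51 in CM_neg (SD, n = 3 each), and the ranges of 51.6% to 60.3% in CM_yap and 23.8% to 28.6% in CM_neg were far apart. Acsl5 made up 30.2% ± 2.99 in CM_yap, against 49.8% ± 0.581 in CM_neg, so the leading form was Acsl1 in each CM_yap library and Acsl5 in each CM_neg library. In fibroblasts Acsl5 led in every library, with 50.5% to 54.95% in CF_yap, against 52.4% to 55.6% in CF_neg, and Acsl1 made up 5.83% to 6.17% in CF_yap, against 5.20% to 5.61% in CF_neg. In fibroblasts the share of Acsl4 was higher and that of Acsl3 lower after Yap siRNA: Acsl4 made up 24.4% to 26.3% in CF_yap, against 18.1% to 19.9% in CF_neg, and Acsl3 14.8% to 17.1% in CF_yap, against 20.8% to 22.3% in CF_neg.

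The muscle form Cpt1b made up 69.9% to 72.7% of Cpt1a and Cpt1b together in CM_yap, against 65.7% to 67.7% in CM_neg, a small gap without overlap. It made up 10.1% to 13.4% in CF_yap and 9.54% to 11.1% in CF_neg, where the ranges overlapped. Among the binding proteins Fabp3 made up 82.3% to 86.2% in CM_yap and 83.8% to 88.2% in CM_neg, and Fabp5 led in fibroblasts with 80.04% to 80.4% in CF_yap and 80.3% to 82.96% in CF_neg, so the makeup overlapped between siRNA groups although both genes changed.

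**Figure D5:**
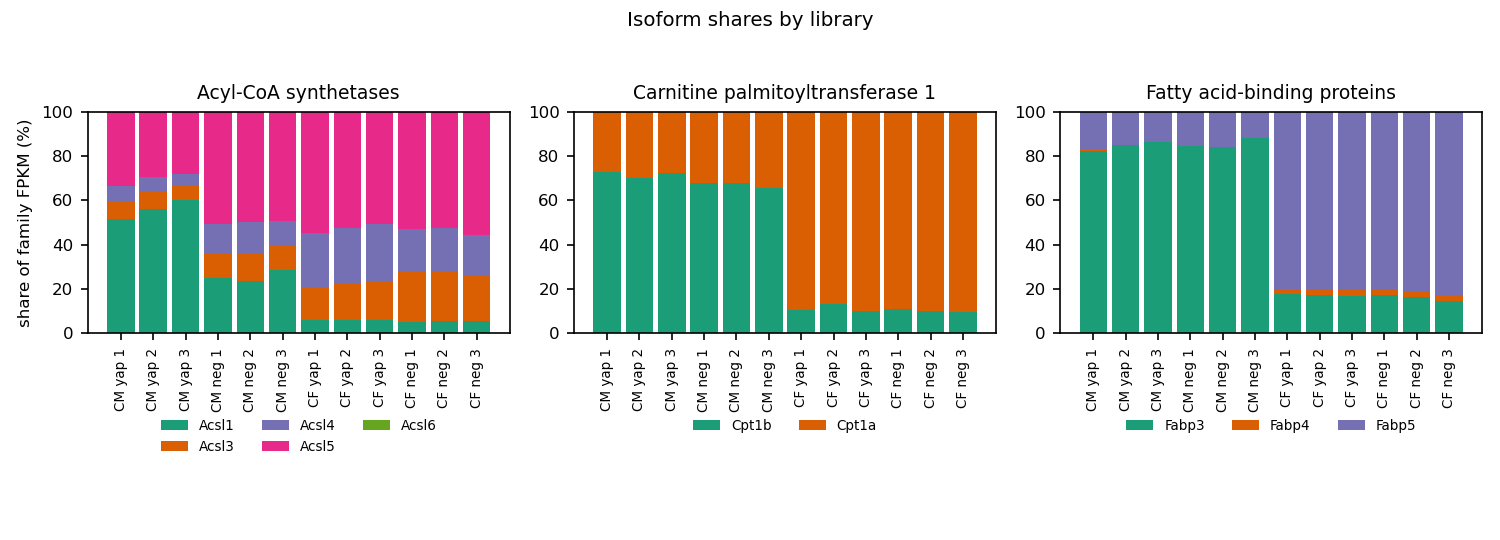
Share of each gene in the summed FPKM of its family (y axis, %) in every library (x axis) for the Acsl synthetases, carnitine palmitoyltransferase 1 and the fatty acid-binding proteins. Acsl1 takes the largest share of its family in the 3 CM_yap libraries and Acsl5 in the other 9, while the other families keep their leading form within a cell type.

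Neighbouring pathways were counted from lists made for this purpose, with results of these data known, and no difference between lists was tested. Their counts stand beside 21.0% higher and 28.7% lower among all tested genes in cardiomyocytes (median -0.059), and 20.4% higher and 10.5% lower in fibroblasts (median 0.065). In fatty acid synthesis 11 of 14 tested genes (78.6%) fell in cardiomyocytes and 1 (7.1%) rose, with a median of -0.468. Elovl6, an elongase, had 3.66, 5.73 and 5.43 FPKM in CM_yap, against 11.2, 11.8 and 12.1 FPKM in CM_neg (-1.11 ± 0.12), and the desaturase Scd2 fell by 0.69. The gene that rose was Acss2, which activates acetate (0.83 ± 0.095). In fibroblasts 5 (35.7%) fell (median -0.11), led by malic enzyme Me1 (-0.61 ± 0.073) and Elovl6 (-0.76 ± 0.12), and Acss2 rose (0.47 ± 0.095).

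Of 15 genes of peroxisomal oxidation 4 (26.7%) rose and 2 (13.3%) fell in cardiomyocytes, a share of rises near that of all genes (median -0.034), and 5 (33.3%) rose in fibroblasts (median 0.251). Phyh, which starts the α-oxidation of phytanic acid, had 317, 348 and 316 FPKM in CM_yap, against 126, 126 and 149 FPKM in CM_neg (1.29 ± 0.092, adjusted p = 6.41e-08), and in fibroblasts rose by 0.38. The thiolase and carrier Scp2 rose alike in both (0.58 ± 0.064 and 0.58 ± 0.064), and the enoyl-CoA reductase Pecr rose in cardiomyocytes (0.78 ± 0.12). Hsd17b4 rose in fibroblasts by 0.27 but not without CF_yap 2, CF_neg 1 or CF_neg 2 (adjusted p = 0.0535 to 0.0807).

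Of 5 genes of carnitine transport and synthesis 2 rose in each cell type, the carrier Slc25a20 (0.64 ± 0.07 in cardiomyocytes and 0.21 ± 0.07 in fibroblasts) and the peroxisomal transferase Crot (0.36 ± 0.079 and 0.69 ± 0.079). Slc25a20 was not called in fibroblasts without CF_yap 1, CF_yap 3, CF_neg 1 or CF_neg 2 (adjusted p = 0.0698 to 0.133). Of 13 other genes of mitochondrial acyl-CoA handling 6 (46.2%) rose and 2 (15.4%) fell in cardiomyocytes (median 0.133), among them the thioesterases Acot13 (1.04 ± 0.13) and Acot9 (-0.56 ± 0.08) and the epimerase Mcee (0.69 ± 0.12). In fibroblasts Hibch alone rose (0.31 ± 0.099), and not without CF_yap 1, CF_yap 2 or CF_neg 1 (adjusted p = 0.0521 to 0.152). Of 4 ketone genes the monocarboxylate carrier Slc16a1 rose in both cell types (0.63 ± 0.071 and 0.72 ± 0.071) and the dehydrogenase Bdh1 fell in cardiomyocytes (-0.47 ± 0.12). In fibroblasts Oxct1, which starts ketone use, fell by 0.21, but not without CF_yap 2, CF_yap 3 or any CF_neg library (adjusted p = 0.0503 to 0.147).

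Genes of triglyceride and lipid droplets rose in 8 (61.5%) and fell in 3 (23.1%) of 13 cases in cardiomyocytes (median 0.33), and rose in 6 (46.2%) and fell in 1 (7.7%) in fibroblasts (median 0.26). Cidea, a droplet protein, had 397, 429 and 383 FPKM in CM_yap, against 129.5, 125 and 170.2 FPKM in CM_neg, the largest rise of the list (1.52 ± 0.14, adjusted p = 1.06e-06). The phosphatidate phosphatase Lpin1 (1.34 ± 0.13) and the droplet coat Plin2 (0.56 ± 0.059) rose as well. In fibroblasts the lipase inhibitor G0s2 (1.05 ± 0.10) and the lipase Mgll (0.67 ± 0.13) rose, and the lipoprotein receptor Vldlr fell (-0.76 ± 0.059).

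Of 20 regulators 8 (40.0%) rose and 4 (20.0%) fell in cardiomyocytes (median 0.121). In fibroblasts 5 (25.0%) rose, near the share of all genes, and 1 (5.0%) fell (median 0.161). The retinoid receptor Rxrg, a partner of PPAR, had 6.79, 5.48 and 8.42 FPKM in CM_yap, against 1.43, 0.94 and 2.20 FPKM in CM_neg (1.66 ± 0.17, adjusted p = 1.83e-06). Esrrg, an estrogen-related receptor of oxidative tissue, had 25.7, 29.1 and 30.4 FPKM in CM_yap, against 13.7, 15.7 and 17.7 FPKM in CM_neg (0.82 ± 0.12, adjusted p = 3.94e-05), and Rxrb rose by 0.55. In fibroblasts the oxygen-sensing factor Hif1a (0.46 ± 0.064), Rxra (0.62 ± 0.12) and Ppard (0.36 ± 0.087) rose. The 8 rises in cardiomyocytes include Ppard, whose call was lost without any of 8 libraries (CM_yap 1 and 3, each CM_neg library, CF_yap 1 and 2, CF_neg 2; adjusted p = 0.0501 to 0.152). The 5 in fibroblasts include Rxrb, whose call was lost without CM_neg 1 or any fibroblast library (0.0565 to 0.136). Of 14 genes of the citric acid cycle, which burns the acetyl-CoA, 6 (42.9%) rose and 3 (21.4%) fell in cardiomyocytes (median 0.066), with Idh3g (0.41 ± 0.074) and Sdha (0.36 ± 0.066) up and Idh3a (-0.29 ± 0.066) down. In fibroblasts 3 (21.4%) fell (median -0.086), Idh3a (-0.27 ± 0.066), Mdh2 (-0.30 ± 0.076) and Suclg1 (-0.18 ± 0.063); Suclg1 was not called without CF_yap 1, CF_yap 3 or any CF_neg library (adjusted p = 0.0515 to 0.155).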

How the data were processed

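RNA of 12 libraries was analysed. The deposited table gives 1 column of FPKM per library, per the file headers; the authors' steps before it are known only from the submitters' processing notes, which name HISAT, Bowtie2 and the rn6 genome. Per the labels' protocols, the BGISEQ-500 read libraries made from poly-A RNA with a low-input kit. Not given in the sources used here are their versions, the annotation and the strand setting. Depth is unknown: of 7309 low values 32.0% lay within 0.1 of a whole multiple of the gene's lowest value, against 20% by chance, so reads were not recovered and no counting error is given.

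From these values log2(FPKM + 1) was computed. The 11302 of 14636 genes that averaged 0.5 FPKM or more were fitted with limma 3.58.1 in R 4.3.3 (lmFit, eBayes with a variance trend, all 4 groups, two-sided) and called where the adjusted p (Benjamini-Hochberg, over all of them) was under 0.05. An exact permutation test of 3 against 3 libraries cannot give a p below 0.1. The code was tested on simulated data. Tables were read with pandas 2.3.3 and plots drawn with matplotlib 3.10.9, under Python 3.11.15. Symbols were blank or turned into dates on 31 lines, none of them a member, and 208 genes were at 0 in every library.

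The members, the lists of neighbouring pathways and markers, and the comparisons were chosen with earlier results of these data known. Values in every library are given for the 10 called members with the largest change in cardiomyocytes, the 5 largest in fibroblasts, in the difference and between cell types, and for those called in opposite directions; other library values, and the ratios of 2 genes, were chosen after the values were seen. Of each neighbouring list up to 3 called genes with the smallest p per Yap comparison are named; further ones were named after their values were seen. Some genes of these lists are not reported here and are left out of the lists' counts. Alternatives were leaving out each library, a fit of only the compared groups, a block for replicate number, no variance trend, quantile normalization, equal FPKM sums, median-of-ratios scaling, a stricter filter (5 FPKM) or none, and pseudocounts of 0.1 and 5. Promoter windows are RefSeq sequence on GRCr8, matched by gene ID, of which the 250 bases before the start were searched.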

Additional observations from a re-analysis of the deposited data

Results flagged for a closer look

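The following genes are listed because the Yap siRNA effect differed between cardiomyocytes and fibroblasts in the test of the difference itself (limma, adjusted p under 0.05; log2 fold change in cardiomyocytes minus that in fibroblasts). Members with a larger log2 fold change in cardiomyocytes were Acsf2 (1.372), Acsl1 (1.371), Etfb (1.051), Hadh (1.045), Fabp5 (0.89), Acacb (0.725), Fabp3 (0.659), Ucp2 (0.586), Etfdh (0.563), Hadhb (0.46), Acat1 (0.45), Cd36 (0.432) and Acadm (0.328). Members with a larger one in fibroblasts were Angptl4 (-2.259), Acsl4 (-0.981), Lpl (-0.837) and Acsl5 (-0.28).

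Named genes of neighbouring pathways with a difference above 0 were Rxrg (1.704), Cidea (1.154), Vldlr (1.093), Phyh (0.911), Acot13 (0.892), Pecr (0.827), Lpin1 (0.7), Esrrg (0.647), Me1 (0.603), Mcee (0.599), Slc25a20 (0.431), Idh3g (0.355), Mdh2 (0.311), Suclg1 (0.305) and Plin2 (0.301). Below 0 were Hif1a (-0.734), G0s2 (-0.649), Bdh1 (-0.455), Scd2 (-0.358), Acot9 (-0.346) and Crot (-0.33). Rxrg and Esrrg were near 0 in fibroblasts, so a change there could hardly be measured, and both passed the filter through the cardiomyocyte groups. Rxrg had 0.05, 0.05 and 0.05 FPKM in CF_yap, against 0.05, 0.1 and 0.1 FPKM in CF_neg. Esrrg had 0.28, 0.35 and 0.45 FPKM in CF_yap, against 0.22, 0.09 and 0.31 FPKM in CF_neg. Both cell types had a called rise in Phyh, Lpin1, Slc25a20, Plin2, G0s2 and Crot, so the difference there is of size. Vldlr rose in cardiomyocytes (0.33) and fell in fibroblasts (-0.76), and Hif1a fell in cardiomyocytes (-0.28) and rose in fibroblasts (0.46).

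Some of these differences were not called without single libraries: Acot9 (6 libraries, adjusted p = 0.0599 to 0.0786: CM_yap 3, CM_neg 1 and 2, CF_yap 1, CF_neg 1 and 2), Bdh1 (7, 0.0551 to 0.118: CM_yap 1 and 2, CM_neg 2 and 3, CF_yap 1, CF_neg 1 and 2), Crot (8, 0.0549 to 0.0846: CM_yap 1 and 3, CM_neg 1 and 2, CF_yap 1 and 3, CF_neg 1 and 3), Mdh2 (8, 0.0583 to 0.097: CM_yap 1 and 3, CM_neg 1 and 2, CF_yap 2 and 3, CF_neg 1 and 2) and Scd2 (6, 0.0504 to 0.0672: CM_yap 2, CM_neg 2, CF_yap 1 and 3, CF_neg 2 and 3). With a pseudocount of 0.1, Esrrg and Lpin1 lost their calls (0.653 and 0.0594), and the difference of Esrrg was 0.22. Under median-of-ratios scaling the differences of Acot9 (-0.216), Bdh1 (-0.333), Crot (-0.206) and Scd2 (-0.227) were not called (adjusted p = 0.165, 0.14, 0.175 and 0.118), nor were they under quantile normalization (0.0672, 0.208, 0.214 and 0.0794). Quantile normalization ended the call of Mdh2 as well (0.237, adjusted p = 0.119), as did equal FPKM sums (0.238, 0.0953), and that of Acsl5 ended under median-of-ratios scaling or quantile normalization (0.259 and 0.155).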

How the results depend on the processing

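The counts of members kept within 1.5 times under every alternative run, with 2 exceptions: members lower in fibroblasts were 5 and came to 3 without CF_yap replicate 3, and members with a difference below 0 were 4 and came to 7 with equal FPKM sums, which added Acot1, Cpt1a and Crat (adjusted p = 0.0334 to 0.0474). With a library left out, members higher in cardiomyocytes numbered 24 to 26 and lower 5 to 5; in fibroblasts they numbered 16 to 21 and 3 to 5, in the difference 12 to 14 and 3 to 5, and between cell types 32 to 32 and 6 to 7. Of 3389 member values under alternatives, 82 lost their call, 53 gained one, 57 that were called in neither fit changed sign, and 0 called values did. Beside the alternatives named with the results, median-of-ratios scaling added calls in cardiomyocytes (Acadl, Decr1, Hadhb and Mlycd higher, 0.00589 to 0.0181) and in the difference (Acaa2, Cpt2, Eci2 and Hadha above 0, 0.0223 to 0.0407), and ended those of Acads and Cpt2 in fibroblasts (0.0512 and 0.0846). Quantile normalization ended Acads, Acot1 and Cpt2 in fibroblasts (0.117, 0.136 and 0.225). Equal FPKM sums ended Acads in cardiomyocytes (0.12), Cpt2 in fibroblasts (0.0521) and Acadm in the difference (0.0776). In fibroblasts Acot1 was not called with a pseudocount of 0.1 (0.236), nor Pdk4, Cpt2 and Etfb with one of 5 (0.149, 0.0865 and 0.0524). A pseudocount of 5 added calls above 0 in the difference for Cpt1b (0.517, adjusted p = 0.00123) and Pdk4 (0.4, 0.0134). It added a call below 0 there for Acot1 (-0.155, 0.0428). In fibroblasts Cpt1b averaged 2.02 FPKM in CF_yap and 1.05 FPKM in CF_neg, and Pdk4 1.64 and 0.943 FPKM, all below that pseudocount. A pseudocount of 5 understates changes at such levels more than 1 does. Ratios of mean FPKM, Yap over control siRNA, were 1.73 in cardiomyocytes and 1.93 in fibroblasts for Cpt1b. For Pdk4 they were 1.64 and 1.74. Replicate numbers did not clearly pair the samples, judged by deviations of each gene from its group mean. These deviations correlated at -0.123 to 0.144 between same-numbered libraries of compared groups. The highest correlation with another number was -0.035 to 0.158. Same-numbered libraries of CM_yap and CM_neg correlated more for replicate 1 (0.144 against 0.018) and 3 (0.086 against -0.035), and less for 2 (0.037 against 0.061). With the replicate block limma called 5547 genes in cardiomyocytes in place of 5626, 3412 in place of 3495 in fibroblasts, and 26 members higher in cardiomyocytes in place of 25. The block ended the calls of Acads in cardiomyocytes (adjusted p = 0.0512) and Etfb in fibroblasts (0.0613). It added Hadhb and Mlycd in cardiomyocytes (0.0472 and 0.0488) and Acsl4 and Hadh in fibroblasts (0.0477 and 0.0269). With only the compared groups fitted, 4739 genes were called in cardiomyocytes and 4155 in fibroblasts. Members higher in fibroblasts were then 22, with Hadh, Acsl4 and Mlycd added (0.00786, 0.00892 and 0.035). Read depth is unknown, so values near 0, such as those of Acot1, Acsl6 and Ucp3, have no counting error, and 3 libraries per group limit the precision of small changes.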
